A study of Homo sapiens with 10 samples.

Results

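The 9 genes described here surround the site, at 7q22 on the long arm of human chromosome 7, against which the guide RNAs of a CRISPR interference experiment were directed. They were taken by name: the guide target, the long non-coding RNA gene LHFPL3-AS2, and LHFPL3, LHFPL3-AS1, KMT2E, SRPK2, PUS7, RINT1, ORC5 and ATXN7L1 on its flanks. The 9 genes are part of the 60554 genes in the count tables. The cells were Caco-2, a colon carcinoma line that resembles enterocytes in culture, and every library came from 1 stable, puromycin-selected clone that carried dCas9-KRAB. Per the study's methods, a second lentivirus with a hygromycin gene then brought either an empty plasmid (gCtl) or a U6-driven guide RNA (g1 or g2). By the labels, 5 libraries were gCtl, 3 were g1 and 2 were g2. RNA was measured by QuantSeq, which reads the 3′ end of polyadenylated RNA, and levels are given as RPM, the estimated counts of a gene per 1000000 estimated counts of its library. The comparisons ask whether RNA from the target and from its neighbours differed between the libraries labelled g1 or g2 and the gCtl libraries, and between the 2 guides.

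dCas9-KRAB joins a cleavage-dead Cas9, which a guide RNA brings to its matching DNA, to the KRAB repressor domain. KRAB recruits a corepressor that brings histone deacetylases and histone methyltransferases, so chromatin around the guided site can become silent, and the mark can reach past the site. The neighbours of a guided site are therefore read alongside the target in experiments of this kind. The protein-coding neighbours have unrelated roles, from DNA replication (ORC5) and splicing (SRPK2) to RNA modification (PUS7), chromatin (KMT2E, ATXN7L1) and vesicle traffic (RINT1).

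The guided sequence shows how close the g1 and g2 sites lie. In the reference, both 20-base target sites fall in the first exon of LHFPL3-AS2, on the strand of the gene (minus), and they share 8 bases. The window below spans chr7:104926477-104926548 of GRCh38, minus strand, 5′ to 3′. It is printed once per guide, and capitals mark the target site with the NGG motif that follows it.
g1 site: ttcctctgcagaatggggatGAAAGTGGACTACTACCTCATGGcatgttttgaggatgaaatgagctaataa
g2 site: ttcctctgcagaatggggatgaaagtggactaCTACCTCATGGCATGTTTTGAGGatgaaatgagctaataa
The g1 site (chr7:104926509-104926528) begins 117 bases and the g2 site (chr7:104926497-104926516) 129 bases past the annotated start of the gene. Each site with its NGG motif matched exactly 1 gene, LHFPL3-AS2, among the GENCODE 29 transcripts. The last 12 bases of the g1 site with NGG (ACTACTACCTCANGG, both strands) occurred in 0 of 35116 RefSeq promoter windows of 300 bases (GRCh38.p14), and those of the g2 site (TGGCATGTTTTGNGG, both strands) in 1, or 0.00285%. None of the 13 windows of the 8 other genes described here held either motif, and no such window was given for LHFPL3-AS2. The rest of the genome was not searched, so sites of either guide elsewhere were not assessed.

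By GENCODE 29 on GRCh38, LHFPL3-AS2 (ENSG00000225329.3) lies at chr7:104894628-104926645 on the minus strand. Its 3′ part overlaps the 3′ part of LHFPL3 (chr7:104328656-104907232, plus strand) by 12605 bases. LHFPL3-AS1 (chr7:104738597-104804107, minus strand) lies wholly within LHFPL3. On the high-coordinate side follow KMT2E (chr7:105014179-105114361, plus), SRPK2 (chr7:105110704-105399308, minus), PUS7 (chr7:105439661-105522267, minus), RINT1 (chr7:105532085-105567677, plus) and ATXN7L1 (chr7:105605067-105876604, minus). ORC5 (chr7:104126341-104208047, minus) lies on the other side, beyond LHFPL3. Among the 9 genes, the start site nearest to that of the target is KMT2E's, 87.5 kb away, and the others lie between 123 kb (LHFPL3-AS1) and 950 kb (ATXN7L1) away.

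Libraries held between 3838803 and 8730468 estimated counts, so 1 count was worth 0.115 to 0.260 RPM. Of 10 enterocyte or epithelial markers, 9 were above 3 RPM in every library, while CDX1 lay between 0 and 0.326 RPM. Of 6 markers of other cells, PECAM1 (2.03 to 9.90 RPM) and COL1A1 (2.77 to 8.6 RPM) were the highest, and PTPRC, which defines leukocytes, was at most 1.12 RPM. Counts differed by more than sampling noise in all 14 pairs of libraries within a group (chi-square over degrees of freedom 4.79 to 29.9), so no library was treated as a copy of another. The labels do not say whether libraries of a group came from separate cultures, so p-values measure only the spread between these libraries, which may be technical. In such bulk RNA, fewer cells of a kind and less RNA per cell cannot be told apart.

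Of the 9 genes, 7 passed a minimum of 3 RPM in at least 20% of the libraries and were tested among 14657 genes with edgeR's quasi-likelihood test. To be called, a gene needed a p of 0.05 or less after Benjamini-Hochberg adjustment over all genes tested, together with a change of 1.5-fold or more. LHFPL3 and LHFPL3-AS1 had 23 and 27 counts over all 10 libraries and were tested only among the 23385 genes with at least 10 counts.

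LHFPL3-AS2, the guide target, was not lower in the libraries labelled g1 or g2. In the gCtl libraries it was at 1.73, 0.840, 3.73, 1.73 and 3.12 RPM. The libraries labelled g1 had 3.07, 3.95 and 2.03 RPM, and the libraries labelled g2 had 2.16 and 6.01 RPM. The highest value belonged to a g2 library and the lowest to a gCtl library, and the ranges of all 3 groups overlapped. Mean levels were 2.23 ± 1.17 RPM (SD, n = 5) in gCtl, 3.02 ± 0.963 (n = 3) in g1 and 4.09 ± 2.72 (n = 2) in g2.

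The log2 fold change of LHFPL3-AS2 against gCtl was 0.38 (SE 0.50, adjusted p = 0.654) for g1 and 0.93 (SE 0.53, adjusted p = 0.218) for g2. With both guides as 1 group it was 0.63, with a 95% interval from -0.30 to 1.56 and an adjusted p of 0.321. An exact two-sided permutation test of log2(RPM + 1) gave p = 0.19 for the 5 against 5 libraries. These values rest on 4.39 to 44.0 counts per library, and the interval leaves out a log2 fold change below -0.30 for the gene as counted. A knockdown of the target was thus not seen in the summed counts of the gene, and every direction given below is one between libraries as labelled. The study also measured the target by qPCR, which is not analysed here.

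The summed counts of LHFPL3-AS2 come from its pair of annotated transcripts, which share the guided first exon, end in different last exons and had opposite orders between the groups. LHFPL3-AS2-002 (named LHFPL3-AS2-202 in GENCODE 29), the longer transcript of 1832 bases, had 4.29, 3.21, 5.36, 1.07 and 7.5 estimated counts in the gCtl libraries. It had 0, 5.36 and 0 in the libraries labelled g1 and 0 and 1.08 in those labelled g2. Only 2 of the 5 guide libraries were above 1 count, although every gCtl library was. Summed over libraries this was 21.4 counts in gCtl against 6.44 in g1 and g2 together. These counts are few and not scaled to depth, and single transcripts were not tested.

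LHFPL3-AS2-001 (LHFPL3-AS2-201 in GENCODE 29), of 923 bases, had its higher counts in the guide libraries. It had 2.36, 1.17, 15.3, 5.85 and 10.2 estimated counts in the gCtl libraries. The guide libraries had 17.7, 13 and 17.7 (g1) and 13.2 and 43.0 (g2). In these counts, which are not scaled to depth, only gCtl replicate 3 reached the range of the guide libraries. The guide libraries held 4649985 to 8730468 estimated counts in total, and the gCtl libraries 3838803 to 5674360. The transcript carried 61.9% of the gene's counts in gCtl, 90.0% in g1 and 98.1% in g2.

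Part of the target's sequence is not unique to it. Of the stretches of 31 bases in LHFPL3-AS2-001, 20.3% also occurred, on either strand, in transcripts of other genes, against 6.66% of those in LHFPL3-AS2-002. The shared stretches of LHFPL3-AS2-001 were found in 858 other genes, and those of LHFPL3-AS2-002 in 2. These shares are over the whole transcript, whereas QuantSeq reads its 3′ end. Whether the reads were counted by strand is not given in the sources used here, so counts of LHFPL3-AS2-001 cannot be told apart with certainty from those of genes that share its sequence. The part of shared sequence in the level of the target was not tested.

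**Figure D1:**
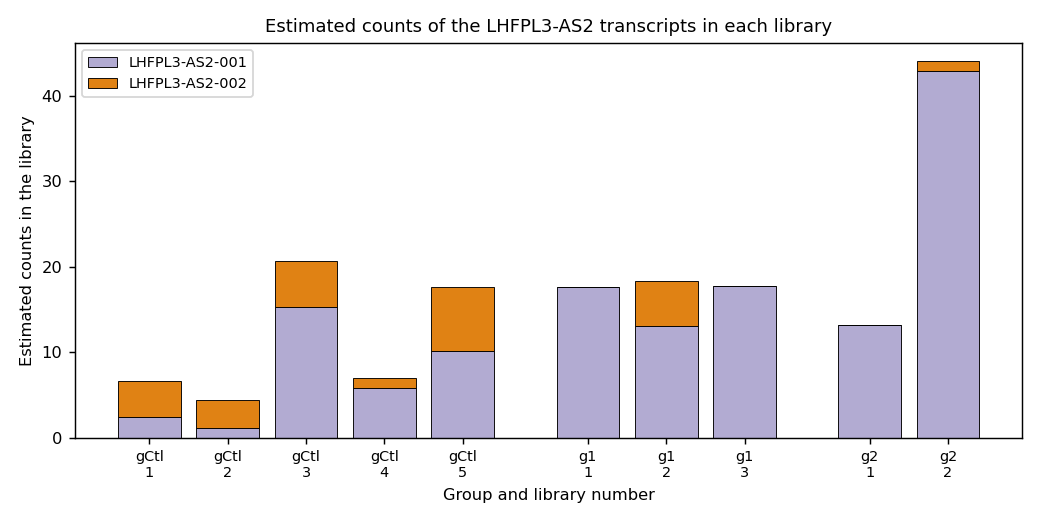
Estimated counts of the transcripts LHFPL3-AS2-001 and LHFPL3-AS2-002 in each of the 10 libraries, by group, not scaled to library depth. The longer transcript, LHFPL3-AS2-002, sums to 21.4 counts in gCtl and to 6.44 in g1 and g2 together, while LHFPL3-AS2-001 reaches 43.0 counts in a g2 library.

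ORC5, a subunit of the origin recognition complex that marks where DNA replication starts, was lower in the libraries labelled g1. It was at 15.1, 11.7, 13.9, 7.75 and 6.34 RPM in the gCtl libraries. It was at 4.52, 5.81 and 3.44 RPM in the libraries labelled g1, each below every gCtl library. The libraries labelled g2, at 8.32 and 4.83 RPM, lay within and below the gCtl range. The gCtl libraries themselves spread widely, with replicates 4 and 5 well under the other three.

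The ORC5 fold change was 2.39-fold lower in g1 (log2 -1.26, SE 0.34, 95% interval -1.98 to -0.54, adjusted p = 0.0201). For g2 the log2 fold change was -0.61 (interval -1.40 to 0.17, adjusted p = 0.241), and for both guides together -0.96 (SE 0.30, adjusted p = 0.0348), or 1.95-fold lower. The difference between the guides, 0.64 on the log2 scale, did not pass the test (adjusted p = 0.42), so a weaker change under g2 was not shown. Permutation of 5 against 3 libraries gave an exact p of 0.0357 for g1, the smallest that design allows. ORC5 had only 26 to 77.1 counts per library, and its g1 call was lost without gCtl replicate 3 (adjusted p = 0.0519), g1 replicate 1 (0.0648) or g1 replicate 3 (0.097). Its call for both guides together was lost without any 1 of gCtl replicates 1, 2 and 3, the 3 g1 libraries or g2 replicate 2 (adjusted p 0.0543 to 0.0954), and when only protein-coding transcripts were summed (0.0534).

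SRPK2, a kinase that phosphorylates the SR proteins of the splicing machinery, was lower when both guides were pooled. The gCtl libraries lay close to each other at 133, 142, 124, 142 and 135 RPM. The libraries labelled g1 were at 115, 89.7 and 62.2 RPM. The libraries labelled g2 were at 42.6 and 108 RPM. All 5 guide libraries were below all 5 gCtl libraries, but they spread far more, from just under the gCtl range to a g2 library at the lowest level of the series.

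The pooled fold change of SRPK2 was 1.58-fold lower (log2 -0.66, SE 0.20, 95% interval -1.08 to -0.24, adjusted p = 0.0295), and the exact permutation p of 0.00794 was the smallest that 5 against 5 libraries allow. Taken alone, g1 gave -0.60 (SE 0.22, adjusted p = 0.0822) and g2 gave -0.74 (SE 0.26, adjusted p = 0.051), neither of which was called by edgeR, although DESeq2 called both (adjusted p = 0.0483 and 0.0282). The guides differed by -0.14 on the log2 scale, with an interval from -0.73 to 0.44. The pooled call was lost without gCtl replicate 1, 2 or 4 or g1 replicate 3 (adjusted p 0.0565 to 0.0699), and without g2 replicate 1, the lowest library, the log2 fold change of -0.52 fell short of 1.5-fold. It was also lost when only protein-coding transcripts were summed (adjusted p = 0.0702). For g2 alone the value depended on which library was kept: -1.49 (adjusted p = 0.00243) without g2 replicate 2 and -0.27 without g2 replicate 1.

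PUS7, a pseudouridine synthase that modifies transfer and messenger RNAs, was lower in the libraries labelled g1 and had tight levels within the guide groups. The gCtl libraries held 38.7, 37.0, 34.8, 37.0 and 47.6 RPM. The libraries labelled g1 were at 24.8, 24.6 and 25.2 RPM. The libraries labelled g2 were at 28.4 and 28 RPM. Guide and gCtl libraries did not overlap, and neither did g1 and g2.

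PUS7 was 1.55-fold lower in g1 (log2 -0.63, SE 0.16, 95% interval -0.97 to -0.29, adjusted p = 0.0144). In g2 the log2 fold change of -0.35 (interval -0.73 to 0.03) had an adjusted p of 0.167. Both guides together gave -0.51 (SE 0.15, adjusted p = 0.0228), which passed the p threshold, as 20.7% of all genes did, and stayed under 1.5-fold, so it was not called. The difference of 0.28 between the guides did not pass (adjusted p = 0.464), although their RPM did not overlap. The g1 call was lost without g1 replicate 1 (adjusted p = 0.0568) or g1 replicate 2 (0.0569), and without gCtl replicate 5, the highest, the log2 fold change was -0.56, under 1.5-fold. When only protein-coding transcripts were summed, PUS7 was also called in g2 (log2 -0.99, adjusted p = 0.0439) and for both guides together (-0.97, adjusted p = 0.0128), and its counts moved widely among its transcripts from library to library.

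**Figure D2:**
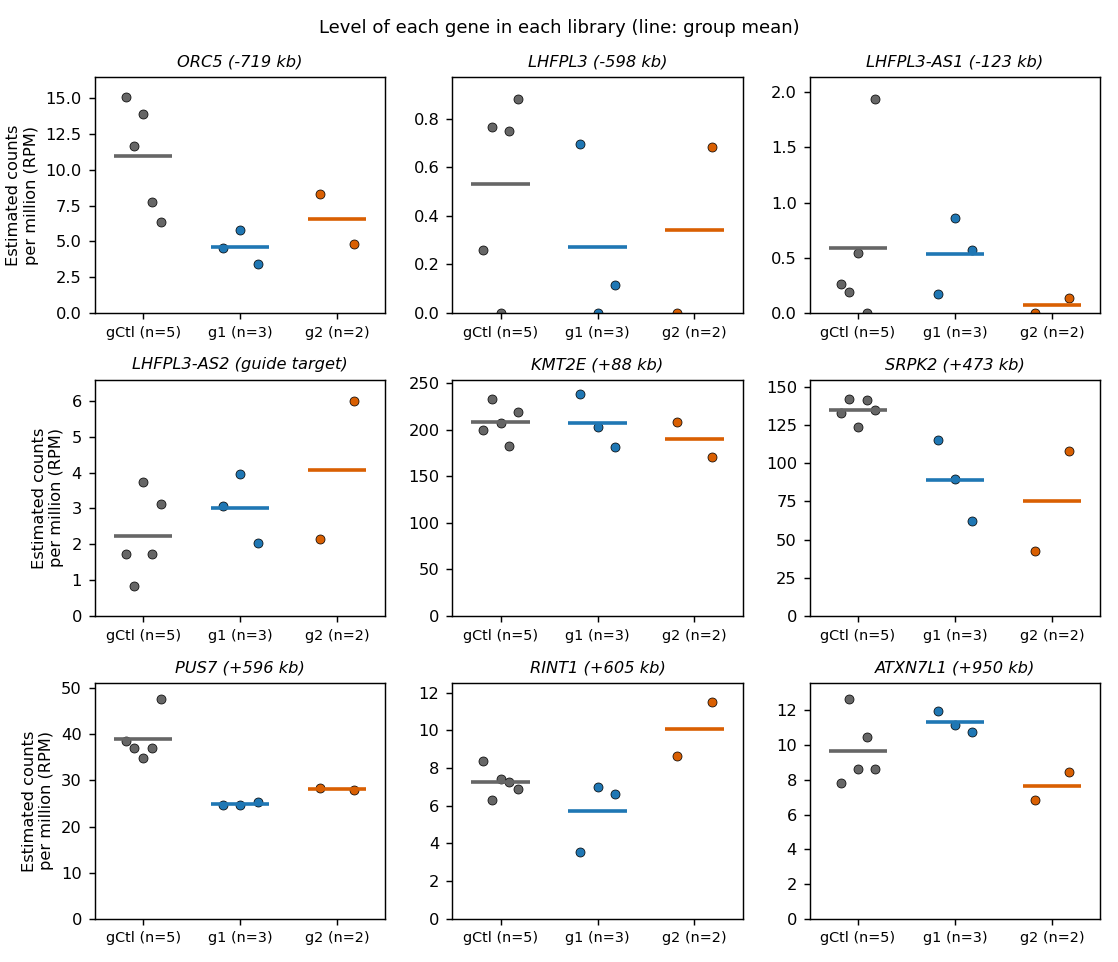
RPM of each of the 9 genes in every library (points), with the group mean as a line, on a separate linear axis per gene. The guide libraries of SRPK2 (42.6 to 115 RPM) and PUS7 (24.6 to 28.4 RPM) lie below every gCtl library, and those of KMT2E and LHFPL3-AS2 overlap the gCtl libraries.

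KMT2E, a chromatin protein of the mixed lineage leukemia family, starts closest to the guided site of the protein-coding neighbours and did not pass the test in any comparison. Its levels were 199.8, 232, 207, 182 and 219 RPM in gCtl. They were 238, 203 and 182 RPM in g1 and 208 and 171 RPM in g2. The 3 ranges overlapped along most of their length. The log2 fold change for both guides together was 0.00, with an interval from -0.27 to 0.27 (adjusted p = 0.998). For g1 it was 0.01 (interval -0.29 to 0.31) and for g2 -0.01 (interval -0.35 to 0.33), and its sign turned under several of the scalings and filters tried. With 729 to 1586 counts per library KMT2E was the most deeply counted of the 9 genes, and a change of 1.5-fold in either direction lay outside all 3 intervals.

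RINT1, which tethers vesicles returning from the Golgi to the endoplasmic reticulum, was not called. It held 8.40, 6.33, 7.43, 7.25 and 6.88 RPM in gCtl. It held 3.57, 7.0 and 6.64 RPM in g1 and 8.65 and 11.5 RPM in g2. Both g2 libraries were above every other library, and g1 replicate 1 was below all of them. The log2 fold change was -0.29 for g1 (adjusted p = 0.513) and 0.59 for g2 (interval -0.03 to 1.21, adjusted p = 0.15). Between the guides it was 0.88 (SE 0.32, interval 0.20 to 1.56), with a p of 0.015 before and 0.143 after adjustment over all genes in edgeR. The gene overlaps EFCAB10 on the opposite strand by 2558 bases, and EFCAB10, whose g1 and g2 log2 fold changes were 0.23 and 0.19, was not called either.

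ATXN7L1, a relative of the SAGA coactivator subunit ATXN7, was not called. The gCtl libraries were at 7.81, 12.6, 8.66, 10.5 and 8.64 RPM. The libraries labelled g1 were at 12, 11.2 and 10.8 RPM, and those labelled g2 at 6.85 and 8.46 RPM. Both guide groups overlapped gCtl, while g1 lay above g2 without overlap. The log2 fold change was 0.25 in g1 (adjusted p = 0.477) and -0.22 in g2 (adjusted p = 0.572). The difference between the guides was -0.46 (interval -1.05 to 0.12, adjusted p = 0.384), and permutation of 3 against 2 libraries could not give an exact p below 0.2.

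LHFPL3, a membrane protein gene of the LHFPL tetraspan family, had 1, 4, 0, 3 and 5 counts in gCtl, 4, 0 and 1 in g1 and 0 and 5 in g2. LHFPL3-AS1, a non-coding RNA gene antisense to it, had 1, 1, 3, 0 and 11 counts in gCtl, 1, 4 and 5 in g1 and 0 and 1 in g2. Both genes were near the limit of detection, and single counts decide their order between libraries. Among genes with at least 10 counts, the pooled log2 fold change was -0.74 for LHFPL3 (interval -2.78 to 1.29, adjusted p = 0.676) and -0.79 for LHFPL3-AS1 (adjusted p = 0.645). No difference was detectable at this depth. The 2 g2 libraries held 1 count of LHFPL3-AS1 together, so no fold change is given for g2.

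Across the 7 genes tested, 2 were called in g1, ORC5 and PUS7, both lower. Over all genes tested 13.9% were called in g1, and 8.39% were called lower. In g2, 0 of the 7 were called by edgeR, against 21.8% of all genes tested (11.9% lower), while 1 (SRPK2) had an unadjusted p under 0.05 and was called by DESeq2. Between g2 and g1, 0 of 7 were called by edgeR or DESeq2, against 3.96% of all genes by edgeR, and 1 (RINT1) had an unadjusted p under 0.05. With both guides together 2 were called, ORC5 and SRPK2, both lower, against 17.5% of all genes called and 9.97% called lower. Under a test against a 1.5-fold change (glmTreat), 0 of the 7 were called in any comparison. With 7 genes, these counts are not read as differing from the background.

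The median log2 fold change of the 7 genes was -0.29 in g1, -0.22 in g2 and 0.00 for both guides together. For the 6 neighbours without the target LHFPL3-AS2 it was -0.44, -0.28 and -0.26. Over all genes tested the medians were 0.02, 0.02 and 0.04. In RPM, 3 of the 7 genes had no overlap between g1 and gCtl (ORC5, SRPK2 and PUS7, all lower), where 23% of all genes had none and 12.2% were lower without overlap. In g2 there were also 3 (SRPK2 and PUS7 lower, RINT1 higher), beside 36.1% of all genes, 23.7% on the lower side. Both guides together left 2 (SRPK2 and PUS7, lower), beside 12.9% of all genes, 8.38% on the lower side. Between g2 and g1 there were 3 (PUS7 and RINT1 higher in g2, ATXN7L1 lower), beside 31.6%.

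**Figure D3:**
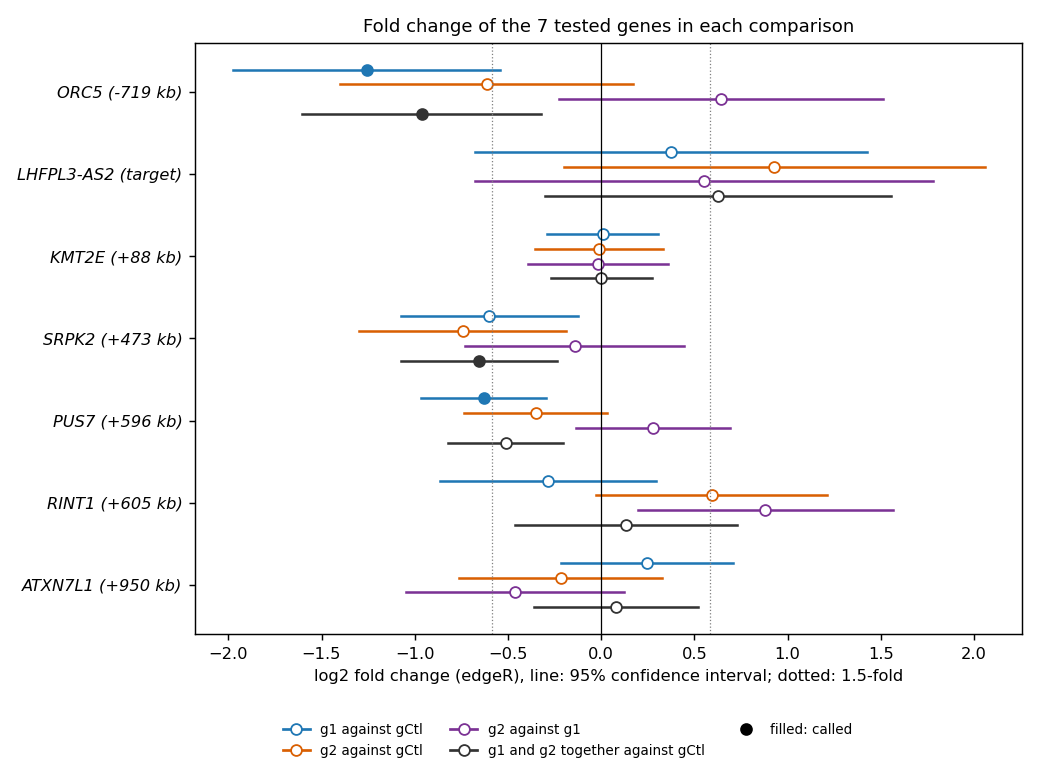
Fitted log2 fold change of the 7 tested genes (points, filled where called) with 95% confidence intervals (lines) in each of the 4 comparisons, with dotted lines at 1.5-fold. The intervals of ORC5 in g1 (-1.98 to -0.54), PUS7 in g1 (-0.97 to -0.29) and SRPK2 for both guides (-1.08 to -0.24) lie below 0, and those of KMT2E lie around 0.

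The values are set out here by distance of the gene start from that of the target, and a trend with distance was not tested. LHFPL3-AS1 (-123 kb) and LHFPL3 (-598 kb) are left out, as they had only 27 and 23 counts over all libraries. The closest tested protein-coding neighbour, KMT2E at 87.5 kb, had log2 fold changes of 0.01 and -0.01, whereas SRPK2 at 473 kb, PUS7 at 596 kb and ORC5 at -719 kb, on the low-coordinate side, had the lowest pooled values. The remaining tested genes that start within 1 Mb were LINC01004 (86.4 kb), CTB-152G17.6 (179 kb), RP11-251G23.5 (644 kb), EFCAB10 (674 kb) and CDHR3 (950 kb). None of these 5 was called by edgeR or DESeq2 in any comparison, and 1 (CDHR3) had an unadjusted p under 0.05, in g2 and between the guides. LINC01004, the nearest of all, had a pooled log2 fold change of -0.10, and CTB-152G17.6 had -0.08. CDHR3, a cadherin family gene, came closest to a call, at -1.07 in g2 with an adjusted p of 0.0537.

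In g1, 2 of the 11 tested genes that start within 1 Mb of the target were called (18.2%, exact binomial 95% interval 2.28 to 51.8%), and within 0.5 Mb 0 of 4, of which 1 (SRPK2) had an unadjusted p under 0.05 and was called by DESeq2. Within 2 Mb the count was 5 of 20 (25%) and within 5 Mb 13 of 85 (15.3%). The remaining chromosome 7 genes had 91 of 593 (15.3%). With 11 genes the interval is too wide to tell whether the share near the target differed from that farther away. In g2 the count was 0 of 11 within 1 Mb (interval 0 to 28.5%), where DESeq2 called 1 (SRPK2). It was 3 of 20 within 2 Mb and 23 of 85 (27.1%) within 5 Mb, against 125 of 593 (21.1%) elsewhere on chromosome 7. For both guides together 2 of 11 within 1 Mb, and 1 of 4 within 0.5 Mb (SRPK2, lower), stood beside 110 of 593 (18.5%).

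**Figure D4:**
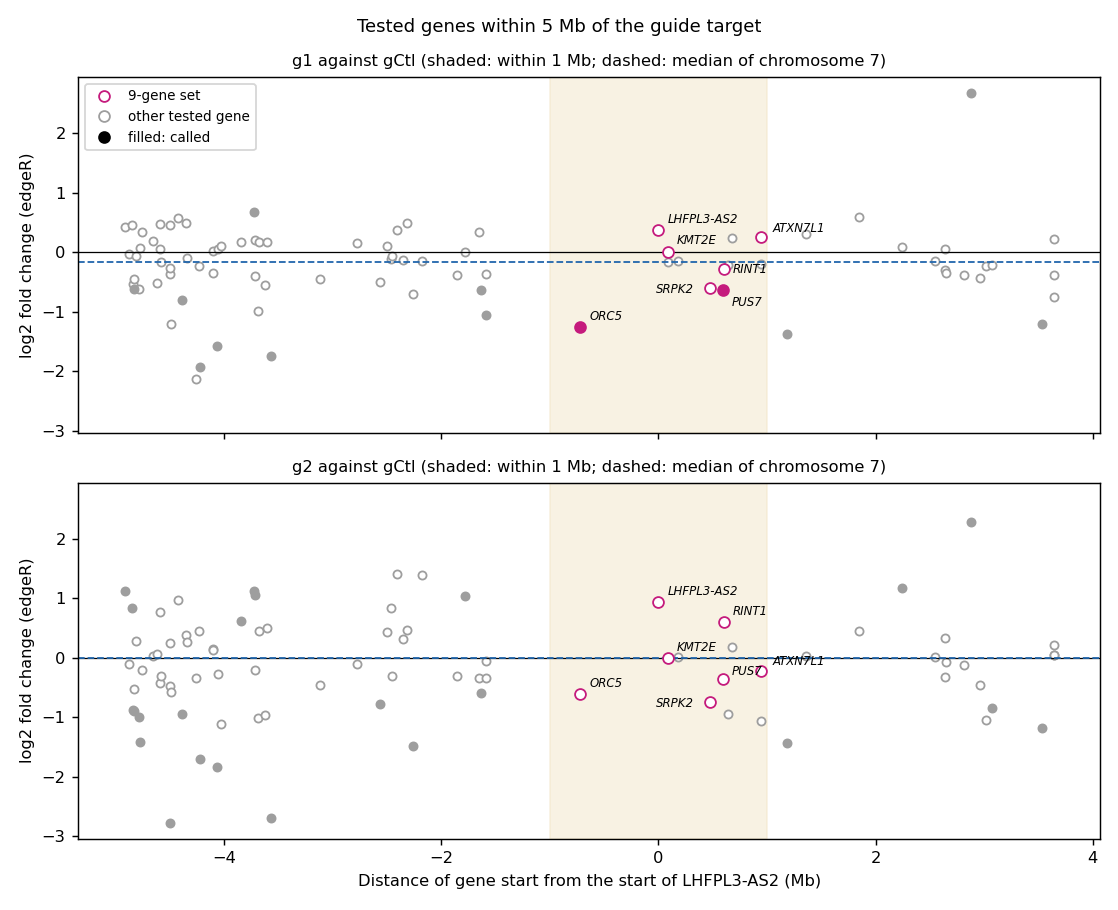
Fitted log2 fold change (y axis) of the tested genes within 5 Mb of the start of LHFPL3-AS2 against the distance of their start sites from it in Mb, for g1 (top) and g2 (bottom), with called genes filled and the described genes in pink and named. In g1 the dashed chromosome 7 median lies at -0.17, KMT2E lies near 0 beside the target, and ORC5 and PUS7 are the filled points within 1 Mb.

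Lower values in the libraries labelled g1 were also found elsewhere on chromosome 7. The tested neighbours taken by name, without the target, had a median log2 fold change of -0.44 in g1. Taken by position instead, the 11 tested genes within 1 Mb of the target had -0.21, and the 4 within 0.5 Mb had -0.16. The 593 tested chromosome 7 genes beyond 5 Mb had -0.17. Over the 679 tested genes of chromosome 7 the median log2 fold change in g1 was -0.17, the lowest but 1 of the 23 chromosomes with at least 100 tested genes, and 91 were called lower against 13 higher. Chromosome medians in g1 ranged from -0.17 (chromosome 3) to 0.35 (chromosome 14). Along chromosome 7 all 8 distance classes had a negative median in g1, from -0.09 to -0.24, the class within 1 Mb resting on 5 genes once the described genes were left out, and the lowest was the class more than 50 Mb before the target. This chromosome-wide view was chosen after the values of the neighbours had been seen and is given as a description.

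The shift stood in each g1 library. With the described genes left out, the median of the other 672 chromosome 7 genes, less that of all genes, was -0.127, -0.276 and -0.209 in the 3 libraries labelled g1. It was -0.033 and -0.051 in the libraries labelled g2, and between -0.008 and 0.016 in each gCtl library set against the other four. In g2 the chromosome 7 median was -0.01, in the middle of the 23 chromosomes. Relative to the chromosome 7 median, the g1 log2 fold changes were -1.09 for ORC5, -0.46 for PUS7, -0.43 for SRPK2 and -0.12 for RINT1. They were 0.17 for KMT2E, 0.41 for ATXN7L1 and 0.54 for LHFPL3-AS2. In g1, ORC5 lay at percentile 5.65 of those 672 genes, PUS7 at 19.8, SRPK2 at 21.3 and RINT1 at 40.5. KMT2E lay at 65.2, ATXN7L1 at 82.1 and LHFPL3-AS2 at 87.4. How far a chromosome-wide difference between libraries takes part in the values of the neighbours was not tested.

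**Figure D5:**
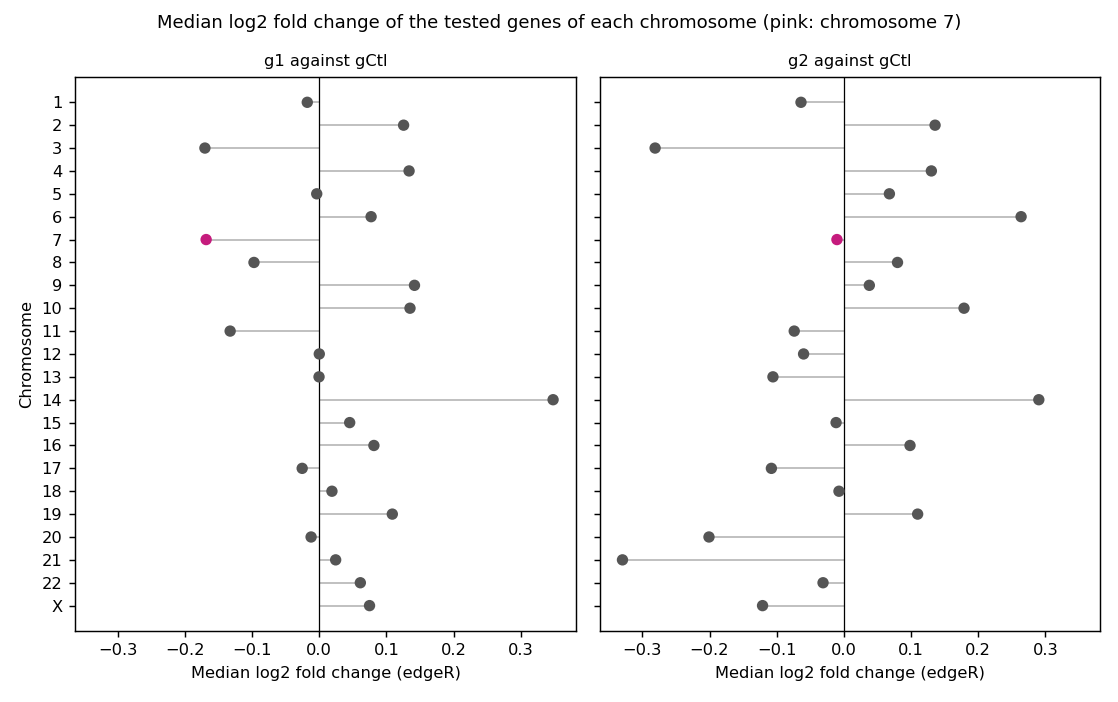
Median fitted log2 fold change of the tested genes of each chromosome with at least 100 of them, for g1 and for g2 against gCtl. Chromosome 7 lies at -0.17 in g1, next to chromosome 3 at the low end, and at -0.01 in g2.

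Farther along 7q22 and its borders, 19 of 28 flanking genes taken by name were tested. In g1, 4 of the 19 were called (3 lower, 1 higher), or 21.1% against 13.9% of all genes, with a list median of -0.22. For both guides together the same 4 were called, where 17.5% of all genes were. PMPCB, a subunit of the mitochondrial processing peptidase, was lower (pooled log2 -0.62, adjusted p = 0.00245), from 88.2 to 105 RPM in gCtl to 56.4 to 65.3 RPM in the guide libraries. PSMC2, an ATPase of the proteasome, was lower in the pooled comparison (-0.73, adjusted p = 0.0255). SYPL1, a synaptophysin-like vesicle protein, was lower by the largest amount (-1.40, adjusted p = 0.00421). SLC26A3, the chloride and bicarbonate exchanger of the colonic brush border, was called higher, but it passed the 3 RPM minimum only through libraries labelled g1. It held 0.18 to 0.72 RPM in gCtl (12 counts in all), 2.15 to 4.01 RPM in g1 and 2.28 to 2.32 RPM in g2. No fold change is given for it, and the calls counted for this list in g1, in g2 and for both guides include it. These genes start 1186 kb (SYPL1) to 2877 kb (SLC26A3) from the target, farther off than any of the 9 genes.

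In g2, 6 of the 19 flanking genes were called, 3 in each direction, or 31.6% against 21.8% of all genes. LAMB1, a laminin chain, fell (-0.85), PMPCB and SYPL1 were lower (-0.59 and -1.44), and HBP1, a transcriptional repressor, rose (1.17). Between the guides 2 of 19 were called (10.5%, against 3.96% of all genes), HBP1 (1.09, adjusted p = 0.0395) and NAPEPLD (1.02, adjusted p = 0.0285), both higher in g2. NAPEPLD lay outside the naming rule and is named because it completes that count.

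Genes elsewhere in the genome that work with the neighbours or resemble them gave few calls. Of 41 tested, 2 were called in g1 (4.88%), 2 in g2 and 2 for both guides together, under the 13.9%, 21.8% and 17.5% of all genes. None of the 7 tested ORC partners of ORC5 was called by edgeR or DESeq2, 1 (CDC6, which loads the replicative helicase) had an unadjusted p under 0.05 in g2, and their median log2 fold change in g1 was 0.18. Among the pseudouridine synthases other than PUS7, PUS10 was higher in g1 (0.87, adjusted p = 0.0298) and for both guides (0.77, adjusted p = 0.0305). TRUB1 was higher for both guides (0.61, adjusted p = 0.0397), and in g2 TRUB2 was higher (0.69, adjusted p = 0.0124) and RPUSD1 lower (-2.08, adjusted p = 0.000428). RPUSD1 also differed between the guides (-1.59, adjusted p = 0.0139). Of the SR protein kinases, CLK1 was higher in g1 (0.63, adjusted p = 0.00508). None of the tested members of the NRZ tether (6), the KMT2 family (5), the ATXN7 and SAGA list (5) or the LHFPL family (1) was called by edgeR or DESeq2, and at most 1 of each had an unadjusted p under 0.05 in any comparison.

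Where the counts of a gene lay among its transcripts also varied. ORC5 was counted almost wholly on ORC5-001 (96.8% in gCtl and 97.8% in the guide libraries), so its summed level was that of a single transcript. SRPK2-002 carried 85.7% of the SRPK2 counts in gCtl and 89.4% in the guide libraries. In KMT2E, transcript KMT2E-201 carried 20.5 to 28.3% of the counts in gCtl libraries and 13.5 to 17.4% in guide libraries, with no overlap, while the summed level did not pass the test. RINT1-006, a retained-intron transcript, had 5, 10, 14, 7 and 7 counts in gCtl, 2, 19 and 28 in g1 and 21 and 49.4 in g2. These counts are not scaled to depth. RINT1-006 carried 24.6% of the RINT1 counts in gCtl, 44.1% in g1 and 51.2% in g2. RINT1-008, the transcript with the most RINT1 counts in gCtl, carried 64.1% in gCtl, 31.6% in g1 and 29.0% in g2. These shares come from the division of ambiguous reads by Kallisto and were not tested.

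KMT2E and SRPK2 end toward each other and overlap by 3658 bases on opposite strands, so part of their sequence is shared. Of the 31-base stretches in the transcript with the most counts, 7.08% of SRPK2-002 and 0% of KMT2E-203 also occurred in other genes, and 2.78% of the next, KMT2E-004. For RINT1-008 the share was 21.3%, all of it with 1 other gene. ORC5-001 shared 0%, PUS7-002 0.029% and PUS7-003, which held 27.5% of the PUS7 counts, 3.24%. These shares are over the whole length of a transcript, whereas QuantSeq reads its 3′ end. The share of reads that fell in shared sequence was not measured. Reads from such overlaps cannot be assigned to a gene without strand.

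The genes with the most similar pattern over the 10 libraries, by Pearson's r of log2 CPM, were RPA3 (0.964) and NOL11 (0.959) for ORC5, EZH2 (0.961) and PPCDC (0.944) for SRPK2, and RP11-152N13.16 (0.930) and PEG10 (0.928) for PUS7. For KMT2E they were GRK6 (0.907) and STX8 (0.892). For RINT1 they were KB-1208A12.3 (0.951) and LSM8 (0.921), for ATXN7L1 TTLL5 (0.950) and RP11-379B18.5 (0.936), and for LHFPL3-AS2 RP11-391L3.1 and LINC01254 (0.944 each). These are the highest of 14657 values each and share libraries and depth, so they are a description. Among the 7 genes themselves r ran from -0.650 (RINT1 and ATXN7L1) to 0.571 (PUS7 and ORC5).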

How the data were processed

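The authors pseudoaligned single-end QuantSeq reads of 10 Caco-2 libraries to GENCODE 24 transcripts (GRCh38) with Kallisto and deposited 1 table per library of estimated counts for 199169 transcripts, not normalized. Here the estimated counts were summed per gene and rounded. The fits used edgeR 4.0.16 under R 4.3.3 (TMM, glmQLFit and glmQLFTest), with 3 groups in 1 fit for each guide and for g2 against g1, and 2 groups for both guides together. The tested genes, of any biotype, exceeded 3 RPM in 20% of the libraries or more. Calls needed 0.05 or less for the adjusted p and 1.5 or more for the fold change. Single values were compared by exact permutation in scipy 1.17.1 (pseudocount 1). The fits were tested on simulated data. Alternatives were DESeq2 1.42.0, limma 3.58.1, other scalings, filters and sums, and leaving out each library. Named genes were the 9 genes, tested genes within 1 Mb, called genes of the flanking list (at most 6) and of the partner list (at most 8), and the 2 most similar genes each. Members and lists were chosen with earlier results of these data known. Replicate numbers follow accession order and only name libraries. Positions and transcript sequences came from GENCODE 29, promoters from RefSeq. Depth, 3838803 to 8730468 counts, limits the low genes most, and intervals of shares cover counting error only. One exon sequence is not reported here.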

Additional observations from a re-analysis of the deposited data

Results flagged for a closer look

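LHFPL3-AS1 stood out in gCtl replicate 5, where 11 counts gave 1.94 RPM, far above the other 4 gCtl libraries (0 to 0.541 RPM). Each of the 9 genes was examined in the gCtl group in this way. For normally distributed values chance marks about 1 in 20 such groups, a rate that counts this low need not keep. The cause was not tested.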

How the results depend on the processing

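No paired analysis was possible because the labels give the libraries no replicate numbers. Under a test against a 1.5-fold change (glmTreat), the genes called fell to 504 in g1, 910 in g2, 104 between the guides and 514 for both guides together, and 0 of the 7 genes stayed called in g1 or for both guides. Between the guides, genes called were 894 with DESeq2, 1111 without a filter and 119 with only the groups compared in the fit. In g2, 1 of the 7 was called with DESeq2, library totals, a minimum of 10 counts, filterByExpr, no filter and limma at either pseudocount (SRPK2 each time), and 1 (PUS7) when only protein-coding transcripts were summed, which left 1 called for both guides together. Within 0.5 Mb, 0% of genes were called in g1. Leaving out 1 library at a time gave 1185 to 2392 genes called in g1, 1561 to 3802 in g2, 262 to 992 between the guides and 1824 to 2717 for both, and 0 to 3, 0 to 1 and 0 to 2 of the 7 genes in g1, in g2 and for both. Scaling by library totals moved the median of all genes in g2 from 0.02 to -0.10 and the share of g2 calls that were lower from 54.8% to 69.5%, and between the guides from 70.4% to 82.1%.

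KMT2E changed sign without a call. In g1 it was -0.0038 (DESeq2), -0.0035 (its size factors), -0.0053 (library totals), -0.0088 and -0.0089 (limma with 1 and 0.1), -0.11 (protein-coding transcripts) and -0.077 to 0.056 with a library left out. In g2 it was 0.034 (upper quartile), 0.052 (protein-coding genes) and -0.23 to 0.17. Between the guides it was 0.0012 (DESeq2), 0.0016 (size factors), 0.037 (protein-coding genes) and -0.22 to 0.17. For both it was -0.013 (10 counts), -0.0033 (DESeq2), -0.0027 (size factors), -0.055 (library totals), -0.0058 (filterByExpr), -0.0097 (no filter), -0.060 and -0.060 (limma), -0.0016 (3 groups), -0.15 (protein-coding transcripts) and -0.063 to 0.050. RINT1 for both guides was -0.032 and -0.048 with limma and -0.075 to 0.31 with a library left out. Between the guides PUS7 was -0.035 (protein-coding transcripts), and SRPK2 (-0.89 to 0.35) and LHFPL3-AS2 (-0.32 to 1.08) turned with 1 library left out. The cause was not tested. Depth limits LHFPL3 and LHFPL3-AS1 most, where single counts decide, and then LHFPL3-AS2 and ORC5.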
